A study of Homo sapiens with 5 samples.

Results

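The comparison described here sets the 2 DICER1 siRNA libraries against the 2 DROSHA siRNA libraries of a 5-library RNA-seq series in HEK293 cells. The members were taken by their labels, 4 of the 5 libraries, and the mock library was left out of the comparison. HEK293 is a human embryonic kidney line, and all 4 libraries come from the T-REx Flp-In derivative labelled as carrying FLAG-tagged DICER1, so every group shares that tagged copy. Each library is poly(A) RNA at 18 h after transfection with 1 of 2 independent siRNAs to the same enzyme. Whether separate cultures were used is not stated, so the p-values measure the spread between these libraries, which includes any difference between the siRNAs themselves. Effects of an siRNA sequence on other mRNAs were not tested. The design text names the DROSHA knockdown as a control for the DICER1 knockdown.

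DROSHA and DICER1 act one after the other on most microRNAs. DROSHA, in the nucleus with its partner DGCR8, cuts the hairpin out of the primary transcript, and DICER1, in the cytoplasm, cuts the loop off that hairpin to leave a short duplex. A few microRNAs bypass DROSHA: mirtrons, whose hairpins are spliced introns, and miR-484, whose hairpin lies at a transcript start, still need DICER1. Contrasting both knockdowns leaves out what they share and keeps what separates them. A microRNA binds target mRNAs mainly through its seed, bases 2 to 8, and the match to the seed followed by A is called an 8mer site. The mature sequences below belong to 6 of the 15 microRNAs whose sites were counted, those described in the text, with the seed in capitals, 5′ to 3′, from RefSeq (GRCh38.p14); the first 2 need both enzymes, the next 3 are made without DROSHA, and the last belongs to liver.
let-7a-5p: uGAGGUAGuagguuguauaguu
miR-17-5p: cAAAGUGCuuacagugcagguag
miR-484: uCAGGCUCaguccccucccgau
miR-877-5p: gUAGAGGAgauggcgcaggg
miR-1226-3p: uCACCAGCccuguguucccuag
miR-122-5p: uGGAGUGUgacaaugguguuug

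The 4 libraries held between 7620206 and 8736455 counts, and the 10 most abundant genes took between 2.92% and 2.96% of each. Genes with at least 1 CPM (counts per 1000000 counts of the library) in at least 2 of the 4 libraries numbered 12179 of 18257 in the table, with 99.9% of the counts. Levels below are CPM scaled by TMM factors, which lay between 0.993 and 1.003. All 10 markers listed for HEK293 passed this limit and summed to between 950.4 and 1189 CPM per library. Of 20 markers of other cell types in the table, 5 passed it (LRP2, HBB, COL1A1, ACTA1 and HBA1) and 4 had no read, among them the leukocyte gene PTPRC and the kidney tubule genes UMOD and AQP2. The DROSHA libraries differed more from each other (chi-square per degree of freedom 7.54) than the DICER1 libraries did (2.61), and DROSHA siRNA 2 stood far from both DICER1 libraries (7.44 and 9.5) while DROSHA siRNA 1 lay closer to them (3.56 and 5.77).

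The targeted mRNAs separated the groups in the directions the labels give. DICER1 stood at 74.2 and 67.9 CPM with its own siRNAs and at 283 and 333 CPM with DROSHA siRNAs. The DICER1 libraries were 4.34-fold lower, at a log2 fold change of -2.12 ± 0.10 (SE, 2 libraries against 2), and passed edgeR's quasi-likelihood test at an adjusted p of 0.00203. DROSHA stood at 195 and 193 CPM with DICER1 siRNAs and at 41.4 and 42.0 CPM with its own. The DICER1 libraries were 4.65-fold higher, at a log2 fold change of 2.22 ± 0.08, with an edgeR adjusted p of 0.000494. The counts do not separate native DICER1 transcripts from those of the tagged copy. The adjusted p of DICER1 was 0.0962 in edgeR without DICER1 siRNA 2, at a log2 fold change of -2.05.

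These 2 genes, 0.0164% of those tested, were the ones that passed the test at an adjusted p under 0.05, 1 in each direction (0.00821% and 0.00821%). At an unadjusted p under 0.05 there were 1018 genes, 8.36% of those tested, 476 with DICER1 above (3.91%) and 542 with DICER1 below (4.45%). DESeq2 called 28 genes, 17 above and 11 below, and edgeR's likelihood ratio test 130, 74 above and 56 below, while limma voom called DICER1 and DROSHA alone. The count turned on single DROSHA libraries: it was 450 without DROSHA siRNA 1, with 330 above and 120 below, 25 without DROSHA siRNA 2, 4 without DICER1 siRNA 1 and 1 without DICER1 siRNA 2. Leaving out 1 library sets 1 against 2 and assumes that the lone library varies like the pair.

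Most genes lay close together in the 2 knockdowns. The central 50% of log2 fold changes ran from -0.10 to 0.12 and the central 90% from -0.33 to 0.41. Both DICER1 libraries lay above both DROSHA libraries in 2500 genes (20.5%) and below both in 2496 (20.5%), 41% in all. The log2 difference between siRNAs of one enzyme had an SD of 0.17 for DICER1 and 0.25 for DROSHA over the 10608 genes averaging 5 CPM or more, against 0.20 for the difference of group means. The first 2 are differences between single libraries and the last between means of 2, so they are not on equal terms. Of genes averaging 5 CPM or more over the 4 libraries, 27 stood 2-fold or more above without overlap and 5 stood 2-fold or more below, DROSHA and DICER1 included. In 14 of the 27 the DROSHA libraries averaged under 5 CPM, so those genes reached the limit through the DICER1 libraries, and the 2 counts are given as a description. The direction also moved with level: in the 2436 genes with the lowest mean levels, up to 9.68 CPM, 25.1% lay above and 12.6% below, with a median log2 fold change of 0.06, and in the 2436 with the highest, from 110 CPM, 18.3% lay above and 26.8% below, with a median of -0.01.

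**Figure D1:**
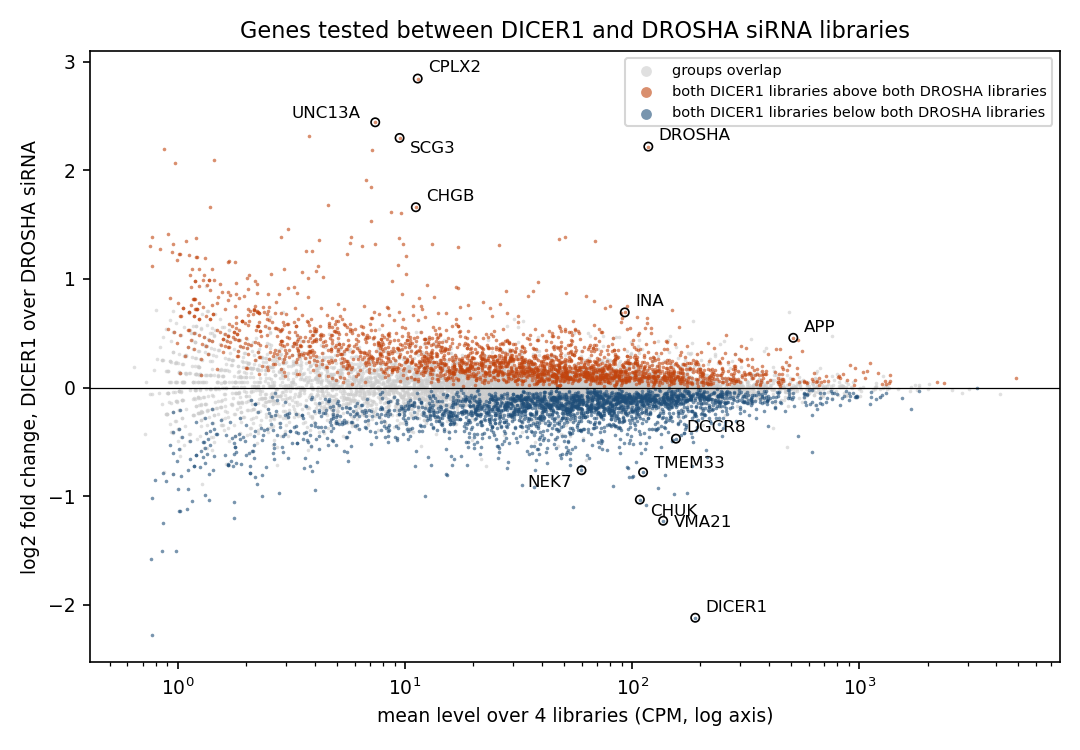
Each point is 1 of 12179 genes, with its mean level over the 4 libraries (CPM, log axis) against its log2 fold change, DICER1 over DROSHA siRNA, coloured by whether the 2 groups overlap. DROSHA at 2.22 and DICER1 at -2.12 passed the test, and the other labelled genes, such as CPLX2 at 2.84 and VMA21 at -1.23, did not.

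Among genes that did not pass the test, the 10 with the smallest p and DICER1 above included 5 known from synaptic vesicles or secretory granules, CPLX2, UNC13A, SCG3, CHGB and CHGA, a grouping made after their values were seen. CPLX2, complexin 2, which clamps and triggers synaptic vesicle fusion, stood at 14.3 and 25.7 CPM in the DICER1 libraries and at 3.11 and 2.43 CPM in the DROSHA libraries (log2 fold change 2.84 ± 0.36, edgeR adjusted p = 0.176). Its counts were 109 and 213 against 27 and 19, so the low group rests on few reads, and the groups do not overlap. UNC13A, which primes synaptic vesicles, stood at 9.57 and 15.4 against 2.54 and 2.04 CPM (2.44 ± 0.32, edgeR adjusted p = 0.176). SCG3, secretogranin 3, a granule sorting protein, stood at 12.5 and 19.0 against 3.81 and 2.55 CPM (2.30 ± 0.30). The granule cargo genes CHGB and CHGA had 14.7 and 19.3 against 6.34 and 4.34 CPM, and 11.1 and 15.2 against 5.07 and 3.45 CPM. In these 5 genes DICER1 siRNA 2 gave the higher level of its pair and DROSHA siRNA 1 the higher level of its own, with no overlap between groups. INA, the neuronal intermediate filament alpha-internexin, was better covered, at 108 and 121 against 75.4 and 66.5 CPM (0.69 ± 0.10, edgeR adjusted p = 0.268). ASPHD1 stood at 7.74 and 9.04 against 3.11 and 3.32 CPM. The 10 genes were chosen among those averaging 5 CPM or more over the 4 libraries. In CPLX2, UNC13A, SCG3, CHGA and ASPHD1 the DROSHA libraries averaged under 5 CPM, so these genes reached that limit through the DICER1 libraries.

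The other 3 of these 10 genes had higher levels than those secretory genes and smaller log2 fold changes. APP, which encodes the amyloid precursor protein, stood at 604 and 582 CPM in the DICER1 libraries and at 439 and 425 CPM in the DROSHA libraries, 1.37-fold higher levels (log2 fold change 0.46 ± 0.05, edgeR adjusted p = 0.171). LBR, which anchors chromatin to the nuclear envelope as the lamin B receptor, had 618 and 631 against 495 and 495 CPM (0.34 ± 0.05), and KIAA1147 at 110.4 and 121 against 81.1 and 77.0 CPM (0.55 ± 0.09). Both libraries of a pair lay close together for all 3 genes.

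On the other side, the 10 genes with the smallest p and DICER1 below each stood at 37.7 CPM or more in every library. VMA21, needed to assemble the vacuolar ATPase, stood at 81.4 and 82.7 CPM in the DICER1 libraries and at 170 and 214 CPM in the DROSHA libraries, 2.34-fold lower (log2 fold change -1.23 ± 0.12, edgeR adjusted p = 0.104). TMEM33, a membrane protein of the endoplasmic reticulum, stood at 85.1 and 79.5 against 141 and 141 CPM (-0.78 ± 0.08), and DENND5A, a regulator of Rab GTPases, at 75 and 68.8 against 131 and 124 CPM (-0.83 ± 0.09), each with the same edgeR adjusted p of 0.104. CHUK, the kinase IKK-alpha of the NF-kappaB pathway, stood at 78.8 and 63.4 against 135 and 155 CPM (-1.03 ± 0.13). These 4 genes had the smallest p of this direction together with SESN3, a stress-induced sestrin, at 56.8 and 57.7 against 97.3 and 117 CPM. NEK7, a mitotic kinase, stood at 42.1 and 46.8 against 78.3 and 72.3 CPM, PHTF2 at 44.6 and 45.6 against 70.5 and 78.3 CPM, and ZMAT3, a p53-induced RNA-binding protein, at 40.5 and 37.7 against 57.3 and 61.9 CPM. CHPF2, a chondroitin synthesis enzyme, stood at 82.1 and 81.1 against 112 and 115 CPM, and PRRC1 at 83.7 and 76.4 against 113 and 115 CPM.

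**Figure D2:**
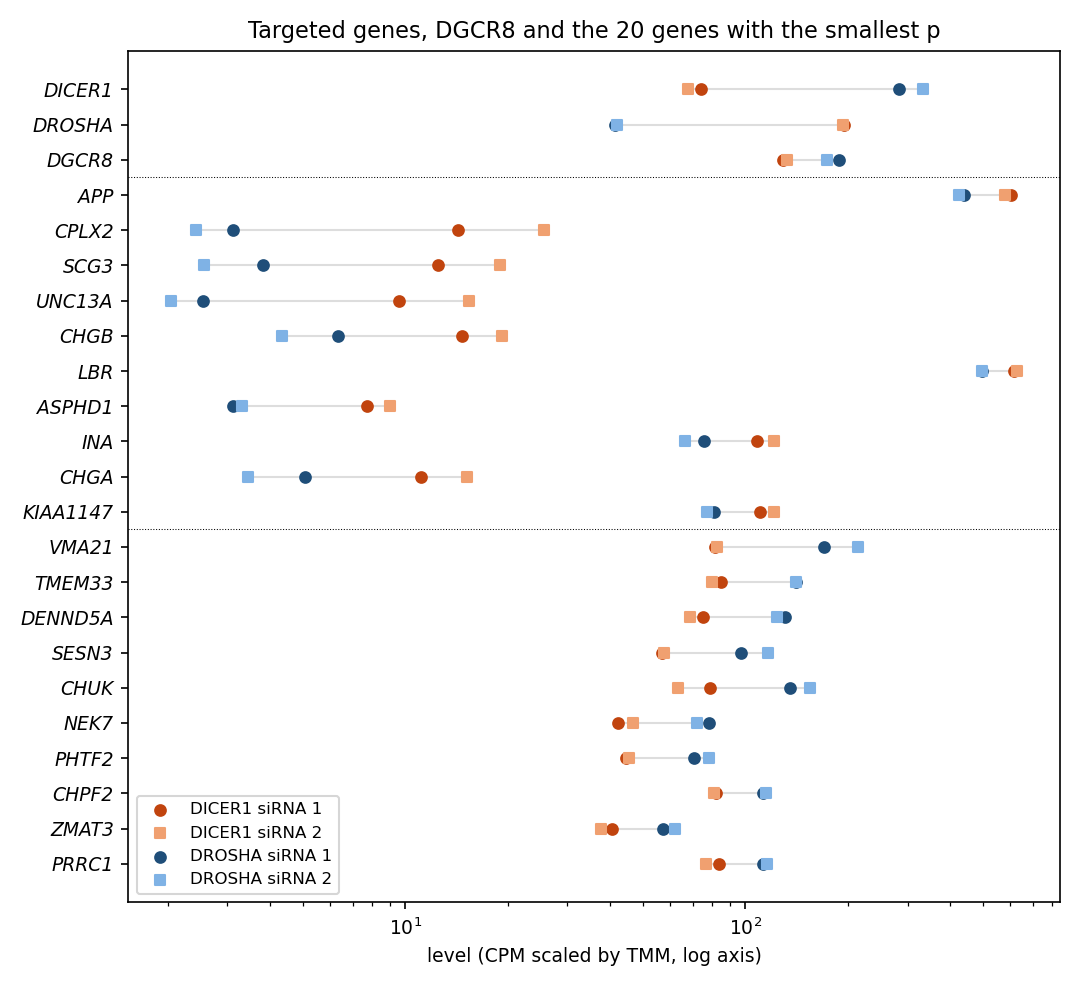
Level of each gene (CPM, log axis) in the 4 libraries, 1 symbol per library, for the targeted genes and DGCR8 (top), the 10 genes with the smallest p with DICER1 above (middle) and the 10 with DICER1 below (bottom). The groups do not overlap in any row, which was a condition of the choice for the middle and bottom genes only. CPLX2, SCG3 and UNC13A show the widest gaps outside the targeted genes.

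The single mock library, scaled together with the other 4, was set beside both groups for these genes. On a log2 scale of CPM plus 1, it lay nearer the DROSHA libraries for 7 of the 10 genes with DICER1 above, CPLX2, SCG3, UNC13A, CHGB, CHGA, INA and ASPHD1, with CPLX2 at 2.97 CPM and SCG3 at 5.11 CPM in the mock. It lay nearer the DICER1 libraries for APP (558 CPM in the mock), LBR (642) and KIAA1147 (116). For those 3 genes, then, the DROSHA libraries stood lower than the other 3 libraries of the series. Of the 10 genes with DICER1 below, the mock lay nearer the DROSHA libraries for 9, with VMA21 at 184 and CHUK at 128 CPM, and nearer the DICER1 libraries for CHPF2, at 77.4 CPM. Nearness does not show which group differed from the mock. NEK7, nearer the DROSHA libraries, stood at 108 CPM in the mock, above all 4 siRNA libraries. The mock is 1 library, so these positions have no replicate check.

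Within the microRNA pathway, the partner of DROSHA showed the smallest p after the targeted genes. DGCR8, whose own transcript is a known substrate of DROSHA cleavage, had 129 and 132 CPM with DICER1 siRNAs and 189 and 173 CPM with DROSHA siRNAs. The groups did not overlap, and its log2 fold change of -0.47 ± 0.08 did not pass the test (edgeR adjusted p = 0.346). The likelihood ratio test of edgeR, with 130 calls over all genes, called it. The list of microRNA biogenesis and silencing genes had 25 tested members besides DICER1 and DROSHA. Of these, 10 lay above (40%) and 5 below (20%), beside 20.5% each way over all genes. None was called, and 3 above and 3 below had an unadjusted p under 0.05, beside 3.91% and 4.45% of all genes. The median log2 fold change of the list was 0.05, and -0.001 without DROSHA siRNA 2.

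None of the other members passed the test. XPO5, the export receptor that carries the hairpin from nucleus to cytoplasm, stood at 345 and 348 against 316 and 283 CPM (0.21 ± 0.07). XRN2, a nuclear exonuclease, stood at 277 and 279 against 325 and 315 CPM (-0.20 ± 0.06). The GW182 scaffold genes of the silencing complex went different ways, with TNRC6B at 61.0 and 66.8 against 76.1 and 75.4 CPM and TNRC6C at 58.5 and 56.0 against 31.6 and 48.5 CPM. TARBP2, the double-stranded RNA partner of DICER1, stood at 67.9 and 67.0 against 70.9 and 70.6 CPM. LIN28B, which blocks let-7 maturation, overlapped between groups, at 117 and 160 against 141 and 110.2 CPM. The AGO genes were not matched in the table and were not analysed here.

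Targets of microRNAs that need both enzymes had list medians close to that of all genes. The let-7 list (36 tested members) had 7 above and 9 below with a median log2 fold change of -0.02, the miR-17/92 list (40) 11 above and 6 below with -0.02, and the miR-15/16 list (30) 3 above and 5 below with -0.006. All genes had 20.5% above, 20.5% below and a median of 0.002. None of these members was called. An unadjusted p under 0.05 was found for 0 above and 3 below, 1 and 3, and 0 and 2, beside 3.91% and 4.45% of all genes. HMGA2, a chromatin protein and classical let-7 target, stood at 162 and 141 against 184 and 182 CPM, and CCND2, a G1 cyclin, at 77.4 and 69.2 against 94.9 and 90.8 CPM. CDC34, a ubiquitin-conjugating enzyme of the let-7 list, stood at 67.7 and 53.6 against 86.0 and 83.0 CPM. TRIM71, a ubiquitin ligase of the let-7 list, lay the other way at 8.26 and 9.28 against 6.69 and 6.51 CPM. In the miR-17/92 list CROT, a peroxisomal carnitine acyltransferase, stood at 12.2 and 10.2 against 19.7 and 19.3 CPM. SQSTM1, an autophagy receptor of the same list, split the DICER1 pair, at 121 and 58.9 against 167 and 173 CPM. E2F2, a cell cycle transcription factor of that list, lay above at 97.8 and 89.2 against 83.5 and 71.1 CPM.

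Sites in 3′ UTRs were counted over far more genes, with differences of medians of at most 0.0338 in size on the log2 scale. For 12022 of the 12179 genes an annotated 3′ UTR of at least 50 nt was matched, and 15 of 18 listed microRNAs had a mature sequence. Genes whose 3′ UTR holds CTACCTCA, the 8mer site of let-7, numbered 522, with a median log2 fold change of 0.005 against 0.002 for genes without it. The 670 genes with GCACTTTA, the site of miR-17, had a median of -0.03 against 0.003. Of them 17.3% lay above and 24.8% below, beside 20.8% and 20.3% of genes without the site. The 468 genes with GAGCCTGA, the site of the DROSHA-independent miR-484, had a median of 0.03 against 0.0007. Of them 22.9% lay above and 16% below, beside 20.5% and 20.7% of genes without the site. For the mirtrons the medians were 0.02 over 484 genes with GCTGGTGA (miR-1226) and 0.003 over 415 genes with TCCTCTAA (miR-877). For the liver microRNA miR-122 the median was 0.01 over 395 genes with ACACTCCA. No test was made of these differences. Genes with a site have longer 3′ UTRs, with a median of 3014 nt for miR-484 against 1390 nt in genes without it, and the part of length in these values was not tested.

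**Figure D3:**
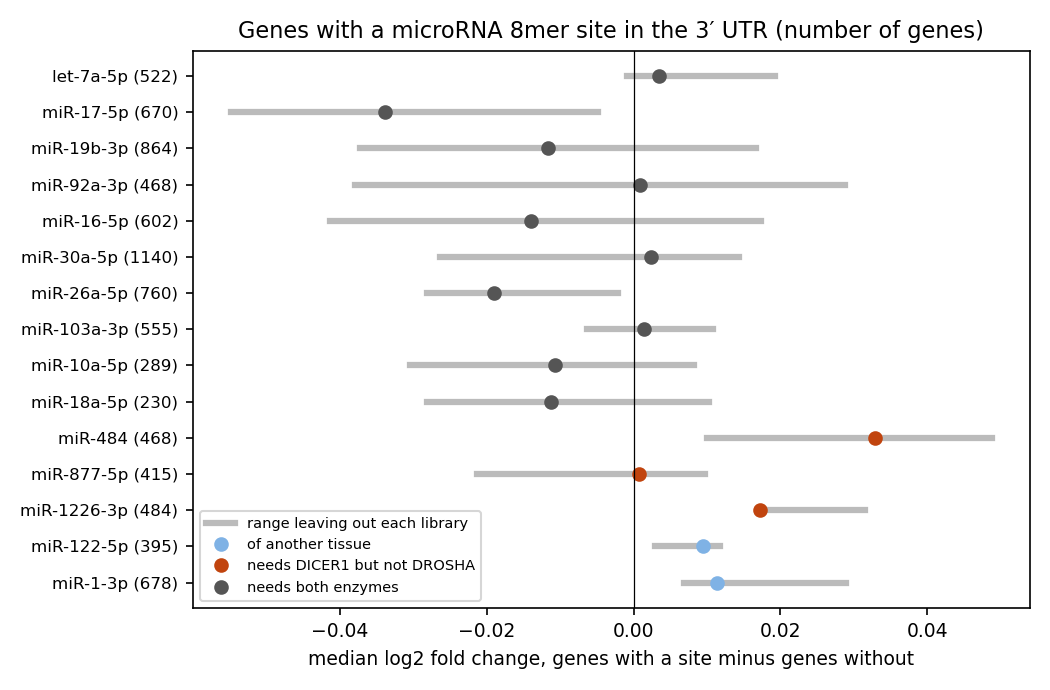
Median log2 fold change of genes with an 8mer site minus that of genes without it, for 15 microRNAs (number of genes with a site in brackets), with grey bars for the range when each library is left out in turn. The value for miR-484 is 0.03 and ranged from 0.01 to 0.05, that for miR-17 is -0.03 and ranged from -0.05 to -0.005. The bars of 9 of the 15 cross 0. Those of microRNAs of other tissues do not, with 0.003 to 0.01 for miR-122 and 0.007 to 0.03 for miR-1.

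Neuronal and secretory granule genes had the highest median of the lists. Of 57 listed genes, all in the table, 44 were tested, and 28 lay above (63.6%) and 3 below (6.82%), beside 20.5% each way over all genes. Their median log2 fold change was 0.42, 1.34-fold. An unadjusted p under 0.05 was found for 22 with DICER1 above and 0 with DICER1 below, beside 3.91% and 4.45% of all genes. None passed the test over all genes. DESeq2, which called 28 of all 12179 genes, called 8 members, among them CELSR3, CHGA, CHGB, CPLX2, INA, SCG3 and SYP. The likelihood ratio test of edgeR, which called 130 of all 12179, called 16 members. Each of these members had DICER1 above. The list was drawn up with its earlier behaviour in these libraries known, so its direction is not independent evidence. Of the 44, 1 gene, CDK5R2, passed the level limit through the DICER1 libraries alone, with 1.31 and 1.57 against 0.231 and 0.383 CPM. Low-level genes in general leaned the same way, as given above. The ATF4 list had a similar share above (62.8%) with a lower median of 0.12. Markers of other cell types lay the same way, 3 of 5 tested above and 0 below with a median of 0.22. Their summed levels were 73.1 and 72.66 against 62.73 and 57.09 CPM. Of the HEK293 markers, 6 of 10 lay above and 0 below, with a median of 0.19, though INA, NEFL and NEFM belong to the neuronal list too. NEFM, whose groups overlap, had the lowest log2 fold change of both the HEK293 and the neuronal list, at -0.34. The part of either marker list in the neuronal values was not tested.

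The synaptic and granule members spanned a wide range of levels. SYP, synaptophysin of the synaptic vesicle membrane, stood at 56.9 and 80.8 against 33.2 and 19.8 CPM (1.37 ± 0.26). SNAP25, of the vesicle fusion complex, stood at 7.74 and 13.3 against 2.54 and 4.85 CPM. CPLX1, the paralog of CPLX2, stood at 11.8 and 21.2 against 9.11 and 8.05 CPM. Other parts of the same machinery lay near equality: VAMP2 at 55.2 and 57.9 against 48.1 and 59.0 CPM and the granule enzyme CPE, below without overlap, at 149 and 150.5 against 151 and 159 CPM.

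Adhesion and channel members lay above or overlapped. CELSR3, an atypical cadherin of axon guidance, stood at 55.3 and 90.9 against 30.9 and 25.03 CPM (1.39 ± 0.24). L1CAM, a neural adhesion molecule, stood at 6.69 and 9.76 against 3.34 and 3.19 CPM, and NCAM1 overlapped between groups at 48.5 and 53.4 against 49.6 and 45.5 CPM. CACNA1B, the N-type calcium channel, stood at 12.8 and 14.5 against 8.30 and 7.92 CPM. Other members differed by little. UCHL1, an abundant neuronal hydrolase, stood below without overlap, at 686 and 685 against 725 and 690.3 CPM. MAP1B stood at 200 and 254 against 230.3 and 222 CPM, and DPYSL3, above without overlap, at 190 and 183 against 181 and 181 CPM.

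Libraries within each pair differed in degree. DICER1 siRNA 2 exceeded DICER1 siRNA 1 in 30 of the 44 members and DROSHA siRNA 1 exceeded DROSHA siRNA 2 in 30. The list median was 0.52 without DICER1 siRNA 1, 0.32 without DICER1 siRNA 2, and above 0 in each of the 4 pairings of a DICER1 with a DROSHA library, from 0.33 to 0.48. The mock lay nearer the DROSHA libraries for 29 of the 44.

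**Figure D4:**
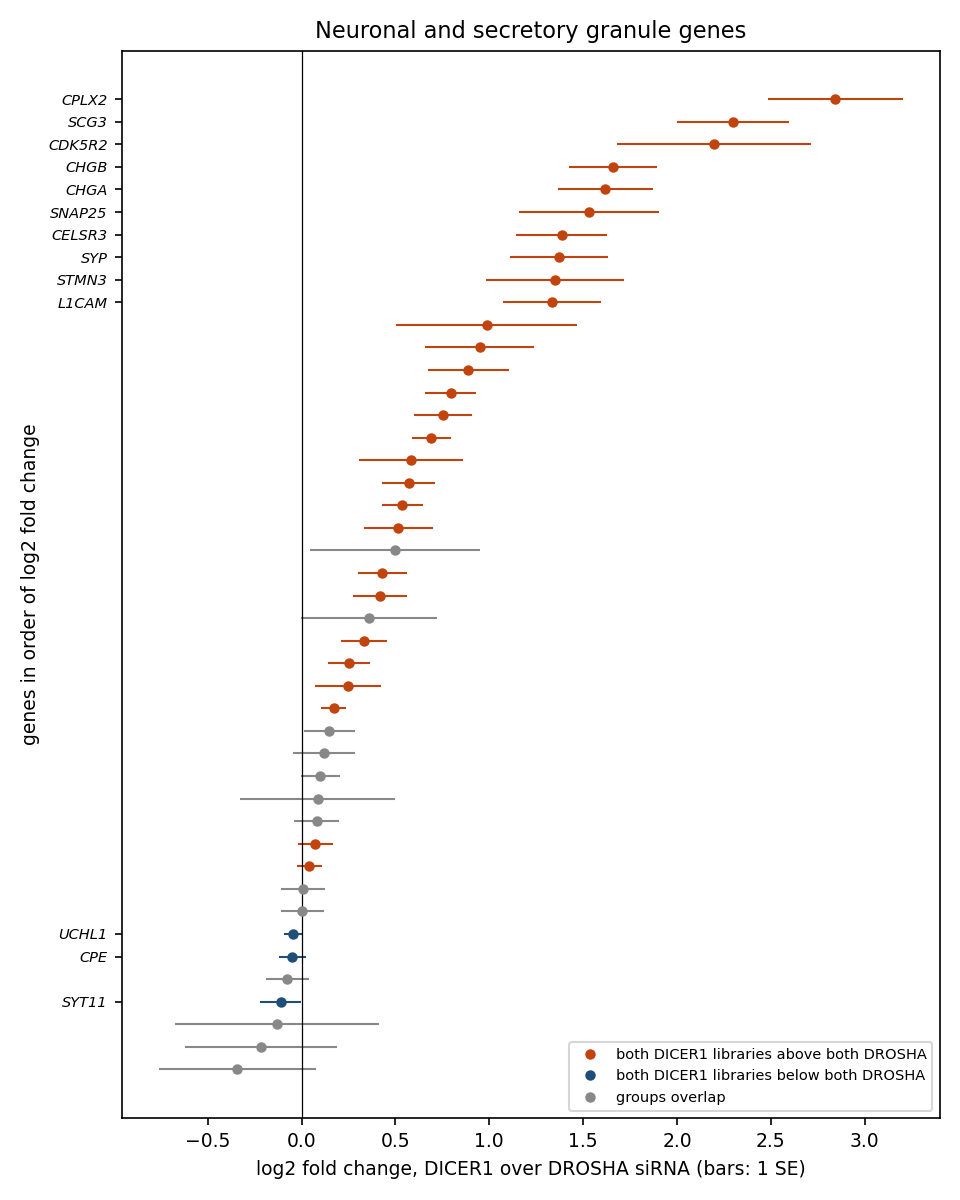
Log2 fold change, DICER1 over DROSHA siRNA, of the 44 tested neuronal and secretory granule genes, with bars of 1 SE; names are given for genes at 1 or more and for those with both DICER1 libraries below. CPLX2 at 2.84 heads the order, 28 genes have both DICER1 libraries above both DROSHA libraries, and UCHL1, CPE and SYT11 have both below.

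The 27 genes at 2-fold or more above included 9 of the neuronal list besides DROSHA: CPLX2, SCG3, CHGB, CHGA, SNAP25, CELSR3, SYP, STMN3 and L1CAM. That list held 36 of the 10608 genes averaging 5 CPM or more. In 14 of the 27, among them CPLX2, SCG3, CHGA, SNAP25 and L1CAM, the DROSHA libraries averaged under 5 CPM. Those genes reached the level limit through the DICER1 libraries. The other 17 of the 27 were UNC13A, MMP24, PAX5, NMNAT2, TMEM145, ASPHD1, GRIK3, CAMKV, CECR6, TMEM198, BSN, RTN2, AP3B2, CAMK2N2, SRRM3, RLTPR and OLFM1, named after their values were seen. Several are known from neurons: BSN, a scaffold of the presynaptic zone, stood at 27.0 and 47.2 against 17.6 and 12.3 CPM, GRIK3, a kainate receptor, at 11.1 and 16.2 against 6.57 and 3.83 CPM, and NMNAT2, an axonal NAD synthesis enzyme, at 8.13 and 13.98 against 3.46 and 2.68 CPM. The 5 genes at 2-fold or more below were DICER1, VMA21, CHUK, CREBL2 and DDAH1. In DDAH1 and CREBL2 the DICER1 pair was split, at 105 and 43.6 against 152 and 160 CPM, and at 47.1 and 22.9 against 65.3 and 84.0 CPM.

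The promoter of CHGA carries a match to the cAMP response element, TGACGTCA, the palindrome bound by CREB-type factors. The 250 bases before its start (RefSeq, GRCh38.p14, chr14:92922900-92923149, plus strand) are shown with the match in capitals, because CHGA is among the 10 genes described above.
CHGA: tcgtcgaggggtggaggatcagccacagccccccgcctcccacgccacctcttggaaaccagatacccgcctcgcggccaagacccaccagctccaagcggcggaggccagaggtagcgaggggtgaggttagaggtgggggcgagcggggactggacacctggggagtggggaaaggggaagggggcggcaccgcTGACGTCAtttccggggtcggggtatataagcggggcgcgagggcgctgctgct

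Both strands were searched from 250 bases before to 50 after each start, in the promoters of 10070 tested genes. TGACGTCA was found in 2 of 33 list members with a promoter (6.06%, CHGA and SYN1) and in 336 of all 10070 (3.34%). The core of repressor element 1, the RE1 motif of neuronal genes, was added to the search after the values were seen, and was found in SYN1 and in 4 promoters overall. Most members thus have neither run of letters in this window, which says nothing of more distant sites.

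Genes of the ATF4 and amino acid response lay above in more than the share of all genes, by small amounts. ATF4 is the transcription factor that is translated when eIF2 is phosphorylated, and its targets supply amino acids and restrain growth. Of 43 tested members 27 lay above (62.8%) and 3 below (6.98%), beside 20.5% each way over all genes, with a median log2 fold change of 0.12, 1.09-fold, and 11 with DICER1 above and 0 below had an unadjusted p under 0.05, beside 3.91% and 4.45% of all genes. None was called, and edgeR's likelihood ratio test, with 130 calls over all genes, called DDIT4, SESN2 and SLC6A9. The sestrin gene SESN2 stood at 117 and 134 against 90.9 and 85.4 CPM (0.51 ± 0.10, edgeR adjusted p = 0.407). DDIT4, an inhibitor of mTORC1, stood at 44.7 and 44.0 against 27.8 and 33.3 CPM, and SLC6A9, a glycine transporter, at 21.0 and 26.4 against 16.4 and 13.9 CPM. ATF4 itself stood at 539 and 598 against 524 and 478 CPM (0.18 ± 0.07), and STC2, a secreted stanniocalcin, at 94.1 and 99.7 against 81.4 and 70.9 CPM.

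The core of the amino acid response element, TGATGNAA, was present in 9 of 35 member promoters (25.7%) and in 1.59% of all. Asparagine synthetase, ASNS, has the smallest p of those 9, at 196 and 219 against 182 and 168 CPM (0.24 ± 0.08), and the 250 bases before its start (chr7:97872409-97872658, minus strand, GRCh38.p14) are shown for that reason with the match in capitals.
ASNS: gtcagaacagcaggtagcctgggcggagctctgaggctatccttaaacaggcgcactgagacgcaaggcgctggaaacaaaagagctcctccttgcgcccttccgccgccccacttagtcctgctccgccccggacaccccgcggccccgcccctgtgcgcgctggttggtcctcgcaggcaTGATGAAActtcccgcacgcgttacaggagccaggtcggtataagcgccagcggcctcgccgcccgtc

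Members with the core had a median log2 fold change of 0.11 and members without it 0.15, a difference that was not tested. Members counted as without the core may hold it outside the window searched. Endoplasmic reticulum folding genes, the other arm of the stress response, were near the share of all genes each way. Of 36 tested, 8 lay above (22.2%) and 8 below (22.2%), beside 20.5% each way over all genes, with a median of -0.03. DERL3, of the pathway that removes misfolded proteins, stood at 48.1 and 54.6 against 38.9 and 39.8 CPM, HERPUD1 of the same pathway at 114 and 111 against 90.8 and 97.5 CPM, and the oxidase ERO1L at 88.5 and 65.8 against 97.3 and 103 CPM. None was called, and 4 above and 2 below had an unadjusted p under 0.05, beside 3.91% and 4.45% of all genes.

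Replication genes had more members above than below and mitotic genes more below than above; the difference between the lists was not tested. Beside 20.5% each way over all genes, of 52 tested G1/S and DNA replication genes 22 lay above (42.3%) and 5 below (9.62%), with a median log2 fold change of 0.07, and of 54 mitotic genes 3 lay above (5.56%) and 20 below (37%), with a median of -0.06. None of either list was called. An unadjusted p under 0.05 was found for 5 above and 1 below, and for 1 above and 6 below, beside 3.91% and 4.45% of all genes. UNG, the uracil glycosylase of replicating DNA, stood at 359 and 374 against 302 and 309 CPM (0.26 ± 0.06), and the thymidylate synthase gene TYMS at 250 and 272 against 225 and 216 CPM. CCNE2, cyclin E2, went the other way, at 31.9 and 31.1 against 44.1 and 41.1 CPM. MAD2L1, which holds anaphase until chromosomes attach, stood at 117 and 85.3 against 177 and 176 CPM (-0.80 ± 0.14, edgeR adjusted p = 0.388), and CCNA2, cyclin A2, at 174 and 158 against 188 and 214 CPM. ANLN, a scaffold of the cytokinetic ring, stood at 173 and 138 against 198 and 228 CPM, while TOP2A, the mitotic topoisomerase, stood at 986 and 1051 against 956 and 845 CPM. DESeq2, with 28 calls over all genes, called MAD2L1 and NEK7 of the mitotic list, both with DICER1 below.

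The cell cycle homology region, TTTGAA on either strand, which cell cycle repressor complexes bind in G2/M promoters, was present in 30 of 45 mitotic promoters (66.7%) and in 9.27% of all. The ANLN promoter holds it in a palindromic pair that ends close to the start, and is shown for that reason (250 bases before the start, chr7:36389612-36389861, plus strand, GRCh38.p14, matches in capitals).
ANLN: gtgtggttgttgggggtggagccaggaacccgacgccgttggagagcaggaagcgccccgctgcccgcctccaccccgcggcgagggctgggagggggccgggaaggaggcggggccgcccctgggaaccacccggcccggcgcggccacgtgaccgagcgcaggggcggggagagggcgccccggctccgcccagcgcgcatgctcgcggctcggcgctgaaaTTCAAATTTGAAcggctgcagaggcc

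The 933 tested genes with the motif in any promoter had a median log2 fold change of -0.01, against 0.001 for genes without it. Mitotic genes with and without it had medians of -0.06 and -0.06. The E2F sites TTTCGCGC and TTTGGCGC were present in 11.4% and 20.5% of G1/S promoters against 0.933% and 1.12% of all.

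Nuclear genes of mitochondrial proteins were counted in 2 lists, beside 20.5% of all genes each way. Among the 2436 genes with the highest levels, from 110 CPM, 18.3% lay above and 26.8% below. Of 74 mitochondrial ribosomal protein genes 8 lay above (10.8%) and 30 below (40.5%), with a median log2 fold change of -0.06. An unadjusted p under 0.05 was found for 8 with DICER1 below and 0 above, beside 4.45% and 3.91% of all genes. MRPL19 stood at 69.5 and 73.4 against 92.1 and 101 CPM (-0.44 ± 0.09), and MRPS33 at 46.3 and 36.4 against 66.4 and 58.0 CPM. Of 75 oxidative phosphorylation genes 7 lay above (9.33%) and 22 below (29.3%). The share below was near that of the genes with the highest levels, and the share above was lower than theirs. Neither list was matched to those genes for level, and the members named here, MRPL19, MRPS33 and NDUFB4, averaged under 110 CPM. The median of the oxidative phosphorylation list was -0.04, and it was 0.002 without DROSHA siRNA 1 and -0.08 without DROSHA siRNA 2. NDUFB4, a complex I subunit, stood at 53.5 and 50.7 against 66.3 and 62.8 CPM. The 80 cytosolic ribosomal protein genes were even, with 14 above, 16 below and a median of -0.0001; reads of these genes can be shared with their many pseudogenes. None of the genes in these 3 lists was called.

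Zinc finger genes, mostly DNA-binding repressors, had 43 above (10.1%) and 110 below (25.8%) of 427 tested, beside 20.5% each way over all genes, with a median log2 fold change of -0.06. That value turned on DROSHA siRNA 2: the median was 0.003 without it and -0.11 without DROSHA siRNA 1. TGF-beta and matrix genes had 17 of 38 above (44.7%) and 5 below (13.2%), with a median of 0.06 and LAMB1, a laminin chain, at 182 and 183 against 159 and 132 CPM. Cholesterol and fatty acid synthesis genes had 10 of 36 above (27.8%) and 5 below (13.9%), with a median of 0.07 and NR1H2, the oxysterol receptor LXR-beta, lower with DICER1 siRNAs at 49.96 and 52.5 against 63.0 and 72.8 CPM, not past the test. Immediate early genes had 8 of 34 above (23.5%) and 3 below (8.82%), with a median of 0.07 and the phosphatase gene DUSP1 at 50.7 and 51.0 against 40.1 and 39.2 CPM. Heat shock chaperones had 3 of 28 above (10.7%) and 9 below (32.1%), with a median of -0.03 and HSPA8 at 1643 and 1520 against 1784 and 1843 CPM. None of the genes in these 5 lists was called. An unadjusted p under 0.05 above and below was found for 0 and 10, 5 and 2, 2 and 1, 3 and 1, and 0 and 3. Over all genes these shares were 3.91% and 4.45%.

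**Figure D5:**
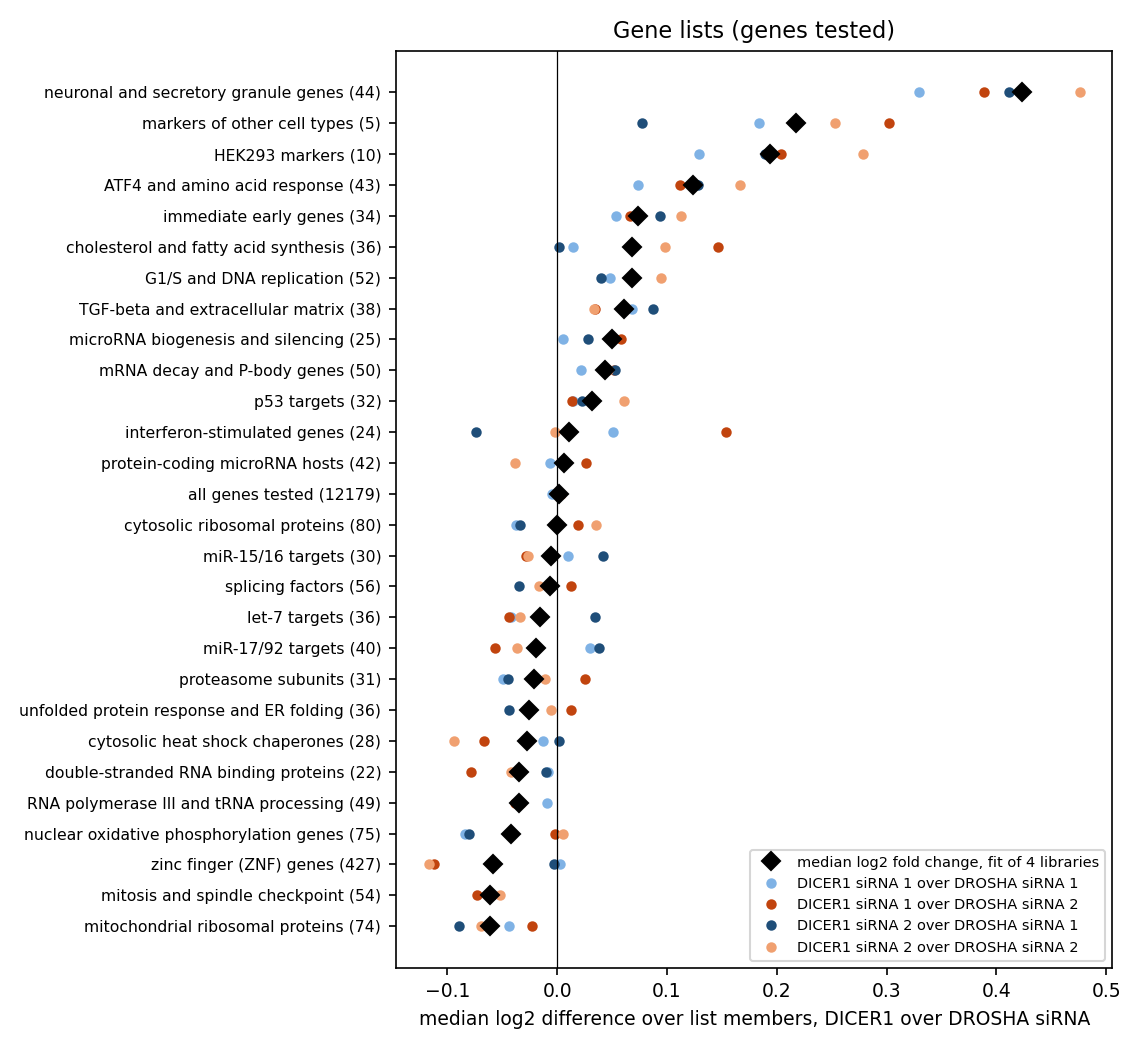
Median log2 difference, DICER1 over DROSHA siRNA, of each gene list (number of genes tested in brackets), from the fit of 4 libraries (diamonds) and from each pairing of 1 DICER1 with 1 DROSHA library (points, on log2 of CPM plus 1). The neuronal list stands at 0.42 with its 4 points from 0.33 to 0.48, and all genes stand at 0.002.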

How the data were processed

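The authors deposited raw read counts per gene symbol, whole numbers with no normalization. The submitters' processing notes list STAR, HTSeq, edgeR, CASAVA 1.8.2 and the build hg19 without roles. No source used here gives the strand setting of the counting, so antisense and overlapping genes could share reads. Columns were matched to samples by name. The genes that reached 1 CPM in 2 or more of the 4 siRNA libraries were fitted in edgeR 4.0.16 (R 4.3.3) with TMM factors, group as the only term and the quasi-likelihood test, with 2 residual degrees of freedom and Benjamini-Hochberg adjustment over 12179 genes. Standard errors are the log2 fold change over the square root of F. The steps were tested on simulated data. "Above" and "below" mean that both DICER1 libraries lay on that side of both DROSHA libraries. Lists are described by counts and medians, with DICER1 and DROSHA left out and no list test. Named genes are DICER1, DROSHA and DGCR8, the 10 smallest p per direction averaging 5 CPM or more without overlap, since fewer than 5 others passed, and up to 4 members per list; others, such as TNRC6C, TARBP2, LIN28B, ATF4, TOP2A and the further neuronal genes, were chosen after their values were seen. The members and lists were chosen with earlier results of these data known. Alternatives were DESeq2 1.42.0, limma voom 3.58.1, edgeR's likelihood ratio test, other scalings and filters, each library left out, the mock added, and a replicate block. Promoters (RefSeq, GRCh38.p14) were matched for 82.7% of tested genes, and the longest GENCODE 29 3′ UTR for 98.7%.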

Additional observations from a re-analysis of the deposited data

How the results depend on the processing

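DROSHA kept its call under all 14 alternatives, with log2 fold changes from 2.21 to 2.23. DICER1 ran from -2.231 to -1.995 and did not pass without DICER1 siRNA 2, at -2.05. The 2 calls became 15 with no filter beyond 1 count, 130 with edgeR's likelihood ratio test, 28 with DESeq2 (709 genes with no adjusted p), and 1 to 450 with 1 library left out; the cause was not tested. The other scalings, the 5 CPM limit, limma voom and the mock added to the fit gave 2. The siRNA numbers do not pair libraries, since each names a different siRNA and the deviations of same-numbered libraries correlated at 0.02 across genes. With a replicate block on those numbers 4 genes were called, CPLX2, DICER1, DROSHA and VMA21, and the TGF-beta and matrix median was 0.067. Upper quartile scaling moved the median of all genes to 0.01 and gave medians of -0.026 (double-stranded RNA binding), 0.052 (mRNA decay), 0.0024 (splicing), 0.0702 (TGF-beta and matrix) and -0.017 (ER folding). Library totals gave 0.049 for mRNA decay, voom 0.068 for TGF-beta and matrix, and the 5 CPM limit -0.021 for double-stranded RNA binding and 0.047 for p53 targets. ACTA1 ran from -0.29 to 0.42 with 1 library left out, turning below 0 without DICER1 siRNA 1.

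With 1 library left out, list medians ran over these ranges: -0.0811 to 0.00765 (cytosolic heat shock chaperones), -0.0325 to 0.0289 (cytosolic ribosomal proteins), -0.0596 to -0.000671 (double-stranded RNA binding proteins), 0.0404 to 0.0811 (G1/S and DNA replication), 0.18 to 0.311 (HEK293 markers), 0.0708 to 0.104 (immediate early genes), 0.151 to 0.333 (markers of other cell types), -0.00107 to 0.0449 (microRNA biogenesis and silencing), -0.0865 to 0.0297 (miR-17/92 targets), -0.091 to -0.0264 (mitochondrial ribosomal proteins), -0.0817 to -0.0651 (mitosis and spindle checkpoint), 0.0253 to 0.0562 (mRNA decay and P-body genes), 0.325 to 0.517 (neuronal and secretory granule genes), -0.0831 to 0.00219 (nuclear oxidative phosphorylation genes), -0.00262 to 0.0736 (p53 targets), -0.0483 to 0.0169 (proteasome subunits), -0.0617 to -0.0101 (RNA polymerase III and tRNA processing), -0.0175 to 0.00217 (splicing factors), 0.0696 to 0.0995 (TGF-beta and extracellular matrix), -0.0212 to 0.00987 (unfolded protein response and ER folding), -0.113 to 0.00335 (zinc finger genes). The 8mer differences, an alternative chosen after seeing the data, ran over these: -0.000838 to 0.0193 (let-7a-5p), 0.00691 to 0.0289 (miR-1-3p), -0.0304 to 0.00824 (miR-10a-5p), 0.00287 to 0.0118 (miR-122-5p), 0.0181 to 0.0315 (miR-1226-3p), -0.0413 to 0.0174 (miR-16-5p), -0.0372 to 0.0167 (miR-19b-3p), -0.0282 to -0.00212 (miR-26a-5p), -0.0263 to 0.0144 (miR-30a-5p), 0.00999 to 0.0488 (miR-484), -0.0213 to 0.00977 (miR-877-5p), -0.038 to 0.0288 (miR-92a-3p). Groups that do not overlap numbered 4421 to 5796 under other scalings and filters.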

Other observations

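The lists not described above are given beside 20.5% of all genes each way. Interferon-stimulated genes had 5 of 24 tested members above and 4 below, with a median log2 fold change of 0.01, and double-stranded RNA binding proteins 4 of 22 above and 5 below, with a median of -0.03. The RNA sensor gene DDX58 stood at 7.08 and 5.54 CPM with DICER1 siRNAs against 8.07 and 9.20 CPM with DROSHA siRNAs. p53 targets had 10 of 32 above and 7 below, with a median of 0.03, and their leading members split: ZMAT3 lay below, while SESN1, a sestrin, stood at 90.5 and 96.2 against 71.4 and 75.4 CPM and BBC3, the apoptosis gene PUMA, at 36.1 and 38.6 against 29.8 and 29.9 CPM. The sestrins thus differed among themselves, with SESN1 and SESN2 above and SESN3 below, none past the test.

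Protein-coding microRNA hosts had 9 of 42 above and 7 below, with a median of 0.007. Genes of mRNA decay had 14 of 50 above and 7 below, with a median of 0.04, and the list of tRNA processing and polymerase III genes 10 of 49 above and 15 below, with a median of -0.03; POLR3A, the largest polymerase III subunit, stood at 152 and 153 against 181 and 178 CPM. Splicing factors had 7 of 56 above and 11 below, with a median of -0.007, and proteasome subunits 2 of 31 above (6.45%) and 9 below (29%), with a median of -0.02. No member of these lists was called. The 10 HEK293 markers had 6 above and 0 below, with a median of 0.19, INA, NEFL and NEFM being shared with the neuronal list. NEFM had the lowest log2 fold change of these 10, at -0.34, with overlapping groups. The 5 tested markers of other cell types had 3 above and 0 below, with a median of 0.22 and summed levels between 57.1 and 73.1 CPM.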
